A study of Arabidopsis thaliana with 8 samples.

Results

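Small RNAs of 21 and 22 nucleotides (nt) were described here for 7 NF-YA genes that are known targets of the microRNA miR169. The 7 genes were NF-YA1 (AT5G12840), NF-YA2 (AT3G05690), NF-YA3 (AT1G72830), NF-YA5 (AT1G54160), NF-YA8 (AT1G17590), NF-YA9 (AT3G20910) and NF-YA10 (AT5G06510). They were taken by gene ID, and all 7 had a row among the 32420 genes of the deposited table. The samples were aerial parts of 20-day-old Arabidopsis thaliana that had spent their first 6 days on MS medium and the next 14 in soil, untreated, with bulk small RNA sequenced from each. Plants called es3 (ein5-1 ski2-3, 4 libraries) carry mutations in EIN5, the cytoplasmic 5'-3' exoribonuclease also called XRN4, and in SKI2, the helicase of the SKI complex, which feeds RNA to the cytoplasmic exosome. Plants called es3dd (4 libraries) carry the same ein5-1 and ski2-3 alleles and, in addition, dcl4-2 and dcl2-1, mutations in the Dicer-like enzymes DCL4 and DCL2, which cut double-stranded RNA into 21-nt and 22-nt small interfering RNAs. Col, the wild type, enters as the authors' group means and comparisons alone. Aerial parts mix many cell types, so fewer cells of a type and less small RNA per cell cannot be told apart.

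NF-YA proteins are the subunits of nuclear factor Y that recognise the CCAAT box in promoters, and they bind DNA as a trimer with the histone-fold subunits NF-YB and NF-YC. Plants have small families of each subunit. In Arabidopsis, miR169 pairs with a site in the 3' untranslated region (UTR) of NF-YA transcripts and lowers their level, and this module is known from drought, nitrogen and phosphate responses. Cleavage by a microRNA leaves RNA fragments that exoribonucleases such as EIN5 and the SKI-assisted exosome normally degrade.

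The microRNA sequences are shown because they fix which transcripts pair. In the RefSeq annotation of TAIR10.1, the 14 MIR169 loci give 4 mature 5' arms, written 5' to 3' with the seed (bases 2 to 8) in capitals. Form 1 comes from MIR169a, form 2 from MIR169b and MIR169c, form 3 from the 7 loci MIR169h to MIR169n, and form 4 from MIR169d, MIR169e, MIR169f and MIR169g.
Form 1: cAGCCAAGgaugacuugccga
Form 2: cAGCCAAGgaugacuugccgg
Form 3: uAGCCAAGgaugacuugccug
Form 4: uGAGCCAAggaugacuugccg
Forms 1, 2 and 3 share the seed AGCCAAG. Form 4 has the seed GAGCCAA, which holds the first 6 of those bases 1 position later.

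The best match to any of the 4 forms in each gene's transcript is shown next, because all 7 genes hold such a site. Each is written 5' to 3' on the transcript strand in DNA letters, with capitals for bases that form a Watson-Crick pair with the microRNA and lower case for a mismatch or a G:U pair. A mismatch was scored 1 and a G:U pair 0.5.
NF-YA2: CAGGCAAaTCATCtTTGGCTc
NF-YA10: CAGGCAAaTCATCtTTGGCTc
NF-YA1: CCGGCAAaTCATtCTTGGCTt
NF-YA9: CGGCAAtTCATtCTTGGCTtt
NF-YA3: agGGgAAGTCATCCTTGGCTA
NF-YA8: aAGGgAAGTCATCCTTGGCTg
NF-YA5: aCGGgAAGTCATCCTTGGCTa
All 7 sites were in the annotated 3' UTR. The capital runs show the shared core, TTGGCT, which pairs with the 5' end of the microRNA.

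Positions are in TAIR10.1, while the submitters' processing notes name TAIR10 for the deposited values, which carry gene IDs and no coordinates. The NF-YA2 site lies at chr3:1676807-1676827 on the minus strand and the NF-YA10 site at chr5:1986749-1986769 on the plus strand, and these sites were identical over 21 of 21 bases. The NF-YA1 site lies at chr5:4051058-4051078 on the minus strand and pairs best with form 2, and the NF-YA9 site at chr3:7328380-7328400 on the plus strand pairs best with form 4. The NF-YA3, NF-YA8 and NF-YA5 sites lie at chr1:27405638-27405658, chr1:6050422-6050442 and chr1:20217494-20217514, all on the minus strand. NF-YA3 and NF-YA5 share 20 of 21 bases, while NF-YA8 shares 19 with each of them. The sites thus fall into a group of 3 genes mismatched at microRNA positions 17 and 21 and a group of 4 mismatched elsewhere, as the pairing map shows. NF-YA5, of the group of 3, is also mismatched at position 1, as are all genes of the group of 4.

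**Figure D1:**
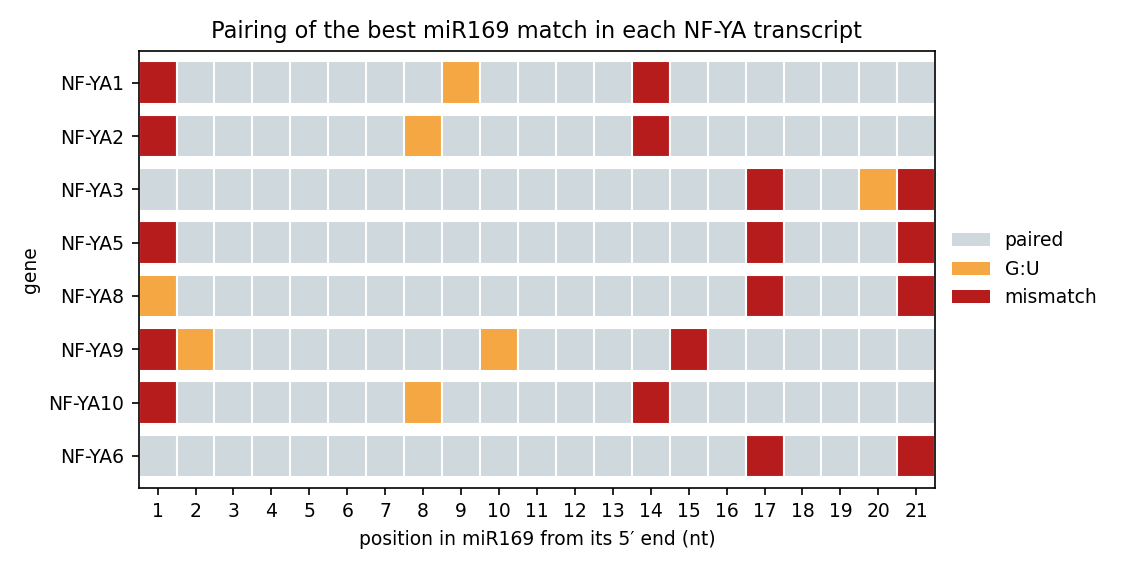
Pairing of each NF-YA site with its best miR169 form, by position along the microRNA from its 5' end (horizontal axis, nt) and by gene (vertical axis), with the kind of pair given by colour. NF-YA3, NF-YA5, NF-YA8 and NF-YA6 are mismatched at positions 17 and 21, and the other 4 genes carry their mismatches elsewhere. NF-YA5 is also mismatched at position 1, as are those 4 genes.

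Across 31464 genes with an annotated mRNA, 11 (0.035%) held a match of penalty 3 or less, and 8 of these 11 were NF-YA genes. They were the 7 genes above, at penalties of 2.5 or 3, and NF-YA6 (AT3G14020), whose site at chr3:4644334-4644354 on the plus strand had the lowest penalty of all genes searched, 2.
NF-YA6: aAGGgAAGTCATCCTTGGCTA
NF-YA6 was not among the 7 genes chosen, and its values are given further on for that reason. The best windows in NF-YA4 and NF-YA7 had penalties of 7 and 5 and lay in coding sequence, so no site is shown for them. A match describes letters in a transcript and does not show cleavage.

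Levels are in the authors' scaling, called TPM in the deposited table. They are reads scaled to the same library depth, with no division by gene length, and the 21-nt and 22-nt classes are scaled apart. The table holds group means, and the 4 library values behind each mean were recovered as whole reads, so libraries are called A to D within a genotype and size class, without a link to the labelled replicate numbers. The recovered depth by which a library was scaled was 1219000 to 1442000 reads for es3 and 1035000 to 1129000 for es3dd at 21 nt, and 1057000 to 1319000 for es3 and 1125000 to 1243000 for es3dd at 22 nt. At these depths 1 read is worth 0.693 to 0.966, so counting error is large for a value near 1. Of 4 leaf photosynthesis genes, all carried 21-nt reads, with means of 101 to 861 in es3, 44.9 to 509 in es3dd and 85.6 to 1030 in Col. Of 4 root markers, RHD6 and EXPA7 were at 0 at 21 nt in all 3 genotypes, COBL9 had 1.19 in es3 and 0 in es3dd and Col, and SCR, a GRAS regulator also known from leaves, had 51.4 ± 8.18 in es3 and 1.17 ± 0.511 in es3dd (SD, n = 4 each). The part of such cells in the NF-YA values was not tested. Small RNAs from the mutated genes themselves do not measure their mRNA and so do not check the genotypes.

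At 21 nt, reads of the 7 genes were present in every es3 library and nearly absent from es3dd. Summed over the 7 genes, the es3 libraries held 73, 71, 59 and 71 reads, against 2, 0, 5 and 2 reads in es3dd. In scaled values the sum was 51.6 ± 7.2 in es3 and 2.07 ± 1.88 in es3dd (SD, n = 4 each), and 8.77 in the authors' Col means. The groups did not overlap in this sum, and 1 es3dd library had no read at all from any of the 7 genes.

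NF-YA2 and NF-YA3 had the highest 21-nt levels per kilobase of exon in es3, 8.18 ± 2.4 and 5.79 ± 0.213 (SD, n = 4 each). NF-YA2, which with NF-YA10 is known to affect leaf growth through auxin genes, had 22.1, 16.1, 11.7 and 13.2 in es3 libraries A to D, against 0, 0, 0.915 and 0 in es3dd. Every es3 library lay above every es3dd library, where a single read was found in 1 library. The log2 difference, on the log2(value + 1) scale used for all such differences here, was 3.79 ± 0.42 (SE), with an adjusted p of 3.42e-08 in limma. NF-YA3, known with NF-YA8 to act in embryo development, had 13.9, 14.5, 14.6 and 15.3 in es3 and 0, 0, 1.83 and 0 in es3dd. Its es3 libraries were the closest together of the 7 genes, with a mean of 14.6 ± 0.536 (SD, n = 4). The log2 difference was 3.59 ± 0.44 (SE; limma, adjusted p = 1.41e-07).

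**Figure D2:**
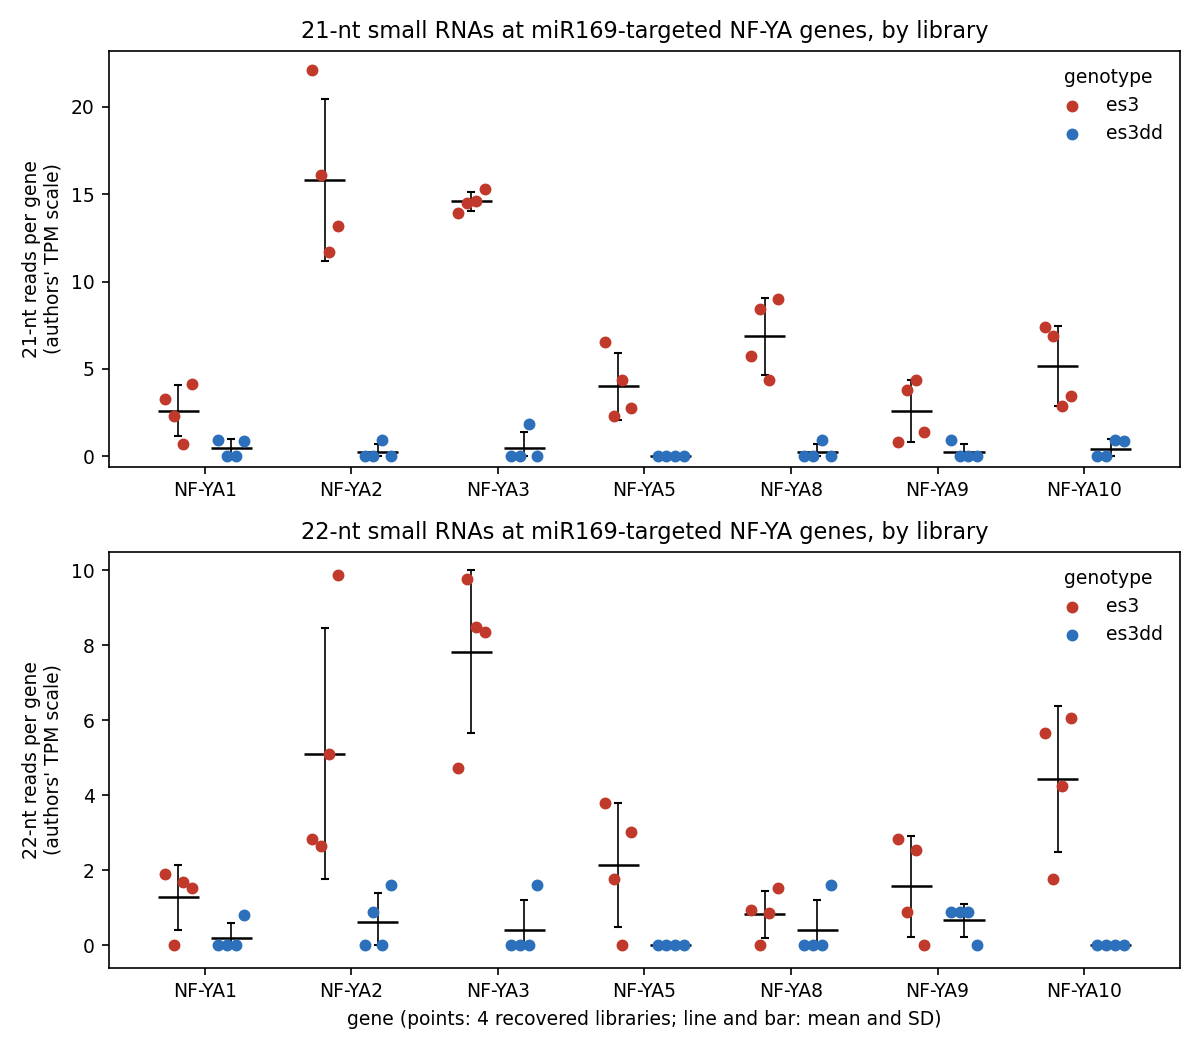
The 21-nt and 22-nt values of each NF-YA gene in the recovered libraries (vertical axis, authors' TPM), with es3 left of es3dd, 1 point per library, a line for the mean and a bar for the SD, ended at 0 where it would pass below. NF-YA2 and NF-YA3 reach 22.1 and 15.3 at 21 nt in es3, while no es3dd library exceeds 1.83 for any of the 7 genes.

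NF-YA8, NF-YA10 and NF-YA5 were lower per kilobase, and their groups did not overlap either. NF-YA8 had 5.74, 8.41, 4.37 and 9.01 in es3, against 0, 0, 0.915 and 0 in es3dd, a log2 difference of 2.70 ± 0.46 (SE; limma, adjusted p = 2.1e-05). NF-YA10 had 7.38, 6.88, 2.91 and 3.47 in es3, against 0, 0, 0.915 and 0.886 in es3dd, a log2 difference of 2.08 ± 0.47 (SE; limma, adjusted p = 0.000625). For NF-YA10 a pair of es3 libraries lay above the other pair, yet the lowest of them was still above both es3dd libraries with a read. NF-YA5, known for its role in drought resistance and stomatal closure, had 6.56, 2.29, 4.37 and 2.77 in es3, with all 4 es3dd libraries at 0. With 3 reads over the es3dd group as the upper limit that a count of 0 allows, the es3 level of NF-YA5 was 5.68 times that limit. Its fitted log2 difference was 2.24 ± 0.45 (SE; limma, adjusted p = 0.000199). Such limits cover counting error in es3dd only and take the es3 reads as exact.

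NF-YA1 and NF-YA9, both known from seed and pollen development, had 14 reads each over the 4 es3 libraries. NF-YA1 had 3.28, 2.29, 0.729 and 4.16 in es3, against 0.966, 0, 0 and 0.886 in es3dd. The lowest es3 library was below both es3dd libraries that had a read. Its log2 difference was 1.27 ± 0.48 (SE; limma, adjusted p = 0.0276), and this call was lost without es3 library A (adjusted p = 0.0619), es3 library D (0.0786), es3dd library B (0.0758) or es3dd library C (0.0771). NF-YA9 had 0.82, 3.82, 4.37 and 1.39 in es3, against 0.966, 0, 0 and 0 in es3dd, so the ranges overlapped through a single read. Its log2 difference was 1.46 ± 0.49 (SE; limma, adjusted p = 0.0131). In the authors' deposited table neither NF-YA1 (adjusted p = 0.0977) nor NF-YA9 (adjusted p = 0.067) passed 0.05 for es3 over es3dd.

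In limma, all 7 genes were called higher in es3 than in es3dd at 21 nt (adjusted p below 0.05 and a log2 difference of at least 1), where 45.8% of the 17293 genes tested were called higher. The es3 libraries all lay above the es3dd libraries for 5 of the 7, and for 36.5% of the genes tested. Each of the 7 had an es3dd mean below 1 and passed the filter (an 8-library mean of 1 or more) only through es3, so these counts lend no support by themselves. The median log2 difference of the 7 was 2.24, beside 0.98 for all genes tested. NF-YA2 and NF-YA3 lay above 97.1% and 96.4% of the genes tested, NF-YA8 above 90.6%, NF-YA5 above 84.6% and NF-YA10 above 81.6%, while NF-YA9 and NF-YA1 lay above 65.3% and 59.1%. Among the 7, NF-YA2, NF-YA3 and NF-YA8 lay highest in the range over all genes, and NF-YA1 lay close to its middle. With es3dd means of 0 to 0.463 for the 7 genes, the median and these ranks mostly follow their es3 levels. They lend no support by themselves either.

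**Figure D3:**
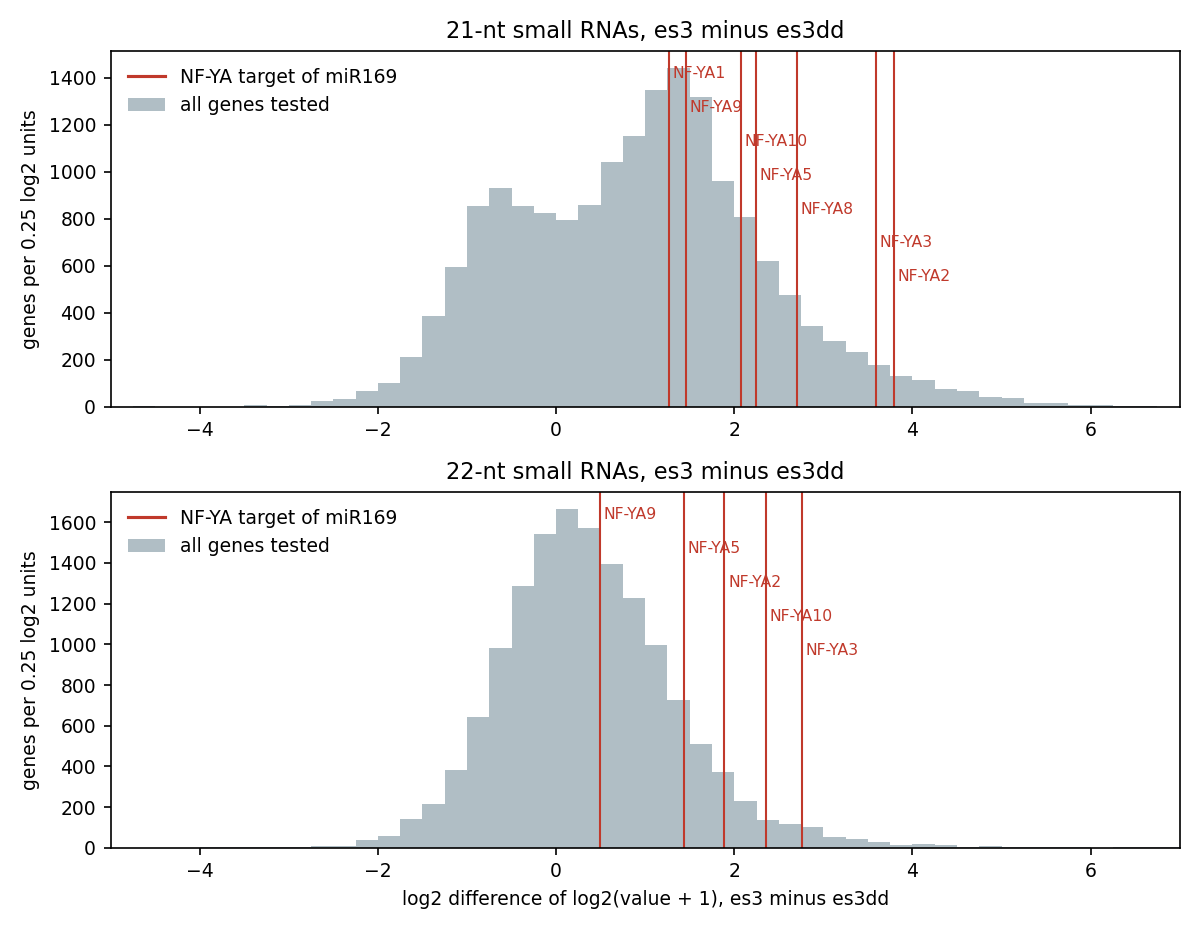
Distribution of the log2 difference, es3 minus es3dd, over all genes tested (vertical axis, number of genes; horizontal axis, log2 difference of value + 1) at 21 and 22 nt, with the NF-YA genes marked. At 21 nt the 7 genes run from 1.27 for NF-YA1 to 3.79 for NF-YA2, beside a median of 0.98 for all genes tested.

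The shift of the whole 21-nt distribution depends on the scaling. For centring on the median, the values of each library were divided by a factor taken from its median of log2(value + 1). A median of 0.42 over all genes remained, so the shift was removed only in part. After this step 5 of the 7 genes were called, with NF-YA1 at 0.85 (limma, adjusted p = 0.155) and NF-YA9 at 1.11 (limma, adjusted p = 0.0567). Scaling to MIR loci or to plastid-encoded genes moved the median of all genes to 2.09 or 1.97, and all 7 were then called. No member changed direction under these scalings. For all genes at 21 nt, the calls were 7918 higher and 1317 lower in the authors' scaling, 4693 and 3492 when centred, 13596 and 55 when scaled to MIR loci, and 12884 and 76 when scaled to plastid-encoded genes. At 22 nt they were 2197 higher and 622 lower, 1546 and 1365, 7453 and 75, and 8006 and 67 in the same order, with 3, 3, 4 and 4 of the 7 genes called higher.

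The authors' deposited table gives a log2 fold change for es3 over es3dd on their own scale. At 21 nt it was 5.81 for NF-YA2, 4.98 for NF-YA3, 4.62 for NF-YA8, 4.55 for NF-YA5, 3.47 for NF-YA10, 3.22 for NF-YA9 and 2.5 for NF-YA1. By the authors' deposited table, 5 of the 7 passed the same thresholds with higher levels in es3, where 32.3% of 19089 genes with an adjusted p did. NF-YA2 was first and NF-YA1 last in both sets of values, which rest on the same reads and so are no independent check.

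At 22 nt the reads were fewer, and each of the 7 genes had more of them in es3 than in es3dd. Summed over the 7 genes, es3 libraries held 24, 19, 27 and 40 reads, against 1, 2, 1 and 7 reads in es3dd. The scaled sum was 23.2 ± 5.52 in es3 and 2.29 ± 2.27 in es3dd (SD, n = 4 each), and 4.70 in the authors' Col means. The sums did not overlap, and 7 of the 11 es3dd reads came from library D. That library also had reads on the most genes of its group, 15498, against 14853 to 14890 in the other 3. It was the deepest of its group as well, at 1243000 reads against 1125000 to 1142000. Without es3dd library D, limma called 3 of the 5 genes tested higher in es3, as many as with all libraries.

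NF-YA3, NF-YA10 and NF-YA2 were higher in es3 at 22 nt. NF-YA3 had 4.73, 9.76, 8.48 and 8.34 in es3, against 0, 0, 0 and 1.61 in es3dd, a log2 difference of 2.76 ± 0.52 (SE; limma, adjusted p = 1.46e-05). NF-YA10 had 5.67, 1.77, 4.24 and 6.07 in es3, with all 4 es3dd libraries at 0. Its es3 level, taken as exact, was 6.94 times the limit of 3 reads over the es3dd group. The fitted log2 difference of NF-YA10 was 2.36 ± 0.55 (SE; limma, adjusted p = 0.000521). In both genes the lowest es3 library was above the highest es3dd library. NF-YA2 had 2.84, 2.66, 5.09 and 9.86 in es3, against 0, 0.884, 0 and 1.61 in es3dd, and here too the groups were apart. Its log2 difference was 1.89 ± 0.54 (SE; limma, adjusted p = 0.00562), and without es3 library D, the highest, it was 1.56 with an adjusted p of 0.0522.

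NF-YA5 and NF-YA9 were tested at 22 nt and not called. NF-YA5 had 3.78, 1.77, 0 and 3.03 in es3, with es3dd at 0 in all 4 libraries, so the ranges met at 0. Its log2 difference was 1.44 ± 0.56 (SE; limma, adjusted p = 0.0534), and without es3 library C, the one at 0, it was 1.91 (limma, adjusted p = 0.011). NF-YA9 had 2.84, 0.887, 2.54 and 0 in es3, against 0.889, 0.884, 0.876 and 0 in es3dd, with a log2 difference of 0.49 ± 0.56 (SE; limma, adjusted p = 0.571). NF-YA9 had 3 of the 11 es3dd reads, as many as NF-YA2. NF-YA1, with 6 reads in es3 and 1 in es3dd, and NF-YA8, with 4 and 2, had 8-library means below 1 and were not tested. Fitted without the filter, their log2 differences were 0.86 ± 0.5 and 0.45 ± 0.47 (SE; limma, adjusted p = 0.296 and 0.625). Neither was called, and counting error is large at such counts.

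Thus 3 of the 5 genes tested at 22 nt were called higher in limma, where 15.1% of 14598 genes tested were, and the groups did not overlap for the same 3, as for 16.2% of all genes tested. The median log2 difference of the 5 was 1.89, beside 0.30 over all genes tested. Those counts and this median too rest on genes that passed the filter through es3. The authors' deposited table called 3 of the 4 members with an adjusted p higher at 22 nt, where it called 10.9% of 14139 genes: NF-YA10 at 4.81, NF-YA3 at 4.19 and NF-YA2 at 3.01 log2.

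**Figure D4:**
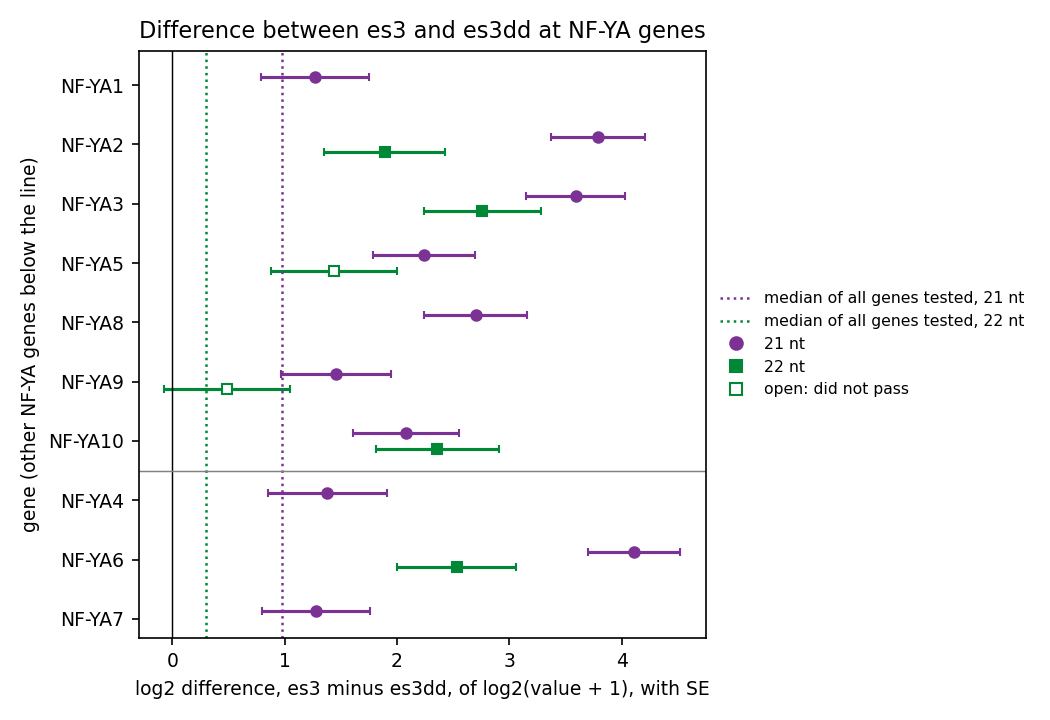
Log2 difference of value + 1, es3 minus es3dd (horizontal axis), with its SE as a bar, for each NF-YA gene tested at 21 and 22 nt (vertical axis). The 21-nt values run from 1.27 to 3.79 over the 7 genes and the 22-nt values from 0.49 for NF-YA9 to 2.76 for NF-YA3.

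The difference from Col can be read only from the authors' deposited table, and it shares the es3 libraries with the comparison above. At 21 nt the authors' means were 15.8 in es3 and 1.69 in Col for NF-YA2, 14.6 and 0.945 for NF-YA3, 6.88 and 0.36 for NF-YA8, and 4.0 and 0.328 for NF-YA5. These 4 passed the thresholds in the authors' deposited table, where 21.2% of 18061 genes were higher in es3 than in Col. Their log2 fold changes there were 3.22 (NF-YA2, adjusted p = 0.000111), 3.85 (NF-YA3, 0.000181), 4.07 (NF-YA8, 0.00275) and 3.28 (NF-YA5, 0.0465). NF-YA10 had 5.16 in es3 and 3.78 in Col, and a log2 fold change of 0.38 (authors' deposited table, adjusted p = 0.745). NF-YA1, with 2.62 in es3 and 1.36 in Col, and NF-YA9, with 2.60 and 0.308, did not pass in the authors' deposited table either (adjusted p = 0.545 and 0.177). For NF-YA10 the order of the 3 genotypes at 21 nt was thus 5.16 in es3, 0.45 in es3dd and 3.78 in Col, so that its Col mean lay nearer to es3 than to es3dd.

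At 22 nt, NF-YA10 had 4.44 in es3 and was listed at 0 in Col, and NF-YA3 had 7.83 in es3 and was listed at 0 in Col. The authors' deposited table gives log2 fold changes of 4.29 for NF-YA10 (adjusted p = 0.0157) and 5.11 for NF-YA3 (adjusted p = 0.000248), the 2 that passed of 4 members with an adjusted p, where 7.85% of 14640 genes were higher. NF-YA2 had 5.11 in es3 and 1.88 in Col (authors' deposited table, log2 1.48, adjusted p = 0.303), and NF-YA1 had 1.28 in es3 and 1.94 in Col (log2 -0.57, adjusted p = 0.849). NF-YA5, NF-YA8 and NF-YA9 had no adjusted p there, with means of 2.15, 0.827 and 1.57 in es3 and 0.306, 0.306 and 0.269 in Col. NF-YA1 was the only one of the 7 with a higher mean in Col than in es3, and only at 22 nt. NF-YA10 differed between the size classes in this comparison, since its Col mean was 3.78 at 21 nt and 0 at 22 nt, and that difference was not tested.

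**Figure D5:**
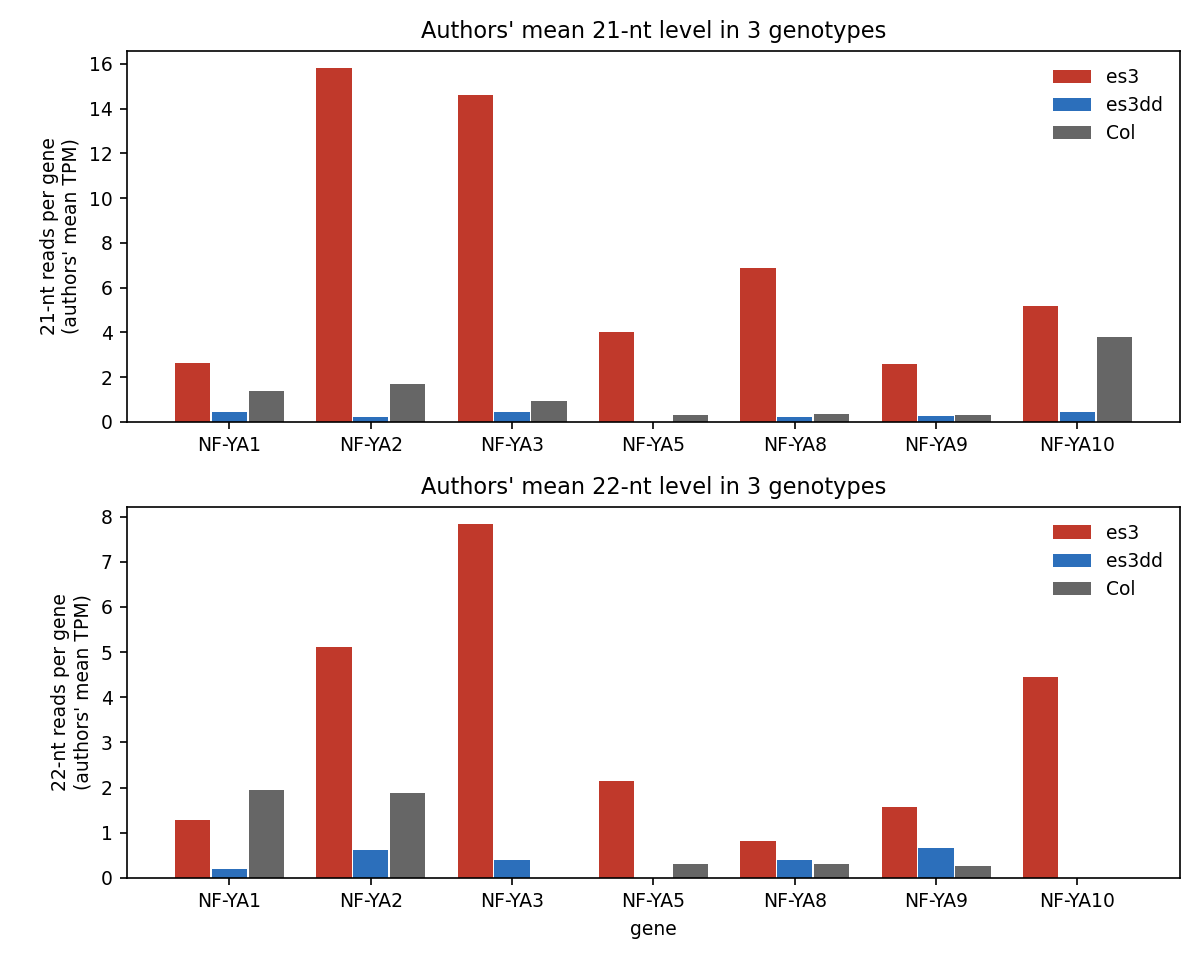
Authors' group means (vertical axis, authors' TPM) of the NF-YA genes in es3, es3dd and Col at 21 and 22 nt. NF-YA10 has 5.16 in es3 and 3.78 in Col at 21 nt, and is listed at 0 in es3dd and Col at 22 nt.

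Levels of different genes were set side by side per kilobase of annotated exon. At 21 nt in es3 the order was NF-YA2 at 8.18 ± 2.4 per kilobase, NF-YA3 at 5.79 ± 0.213, NF-YA8 at 3.53 ± 1.13, NF-YA5 at 2.74 ± 1.32, NF-YA10 at 2.43 ± 1.08, NF-YA9 at 2.06 ± 1.39 and NF-YA1 at 1.64 ± 0.924 (SD, n = 4 each). The libraries of NF-YA3 (5.54 to 6.06) did not overlap those of NF-YA8 (2.24 to 4.63), while every other pair of neighbours in this order overlapped, NF-YA2 (6.05 to 11.5) and NF-YA3 only at their edges. At 22 nt in es3 the order was NF-YA3 at 3.11 ± 0.859 per kilobase, NF-YA2 at 2.65 ± 1.74, NF-YA10 at 2.09 ± 0.914, NF-YA5 at 1.47 ± 1.13, NF-YA9 at 1.24 ± 1.07, NF-YA1 at 0.801 ± 0.543 and NF-YA8 at 0.425 ± 0.321 (SD, n = 4 each). No neighbours in the 22-nt order were apart beyond their libraries' ranges. NF-YA8 moved from the third place at 21 nt to the last at 22 nt, where it had 4 reads in all in es3.

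The 22-nt mean over the 21-nt mean in es3, each in its own scaling, was 0.12 for NF-YA8, 0.324 for NF-YA2, 0.488 for NF-YA1, 0.537 for NF-YA3, 0.537 for NF-YA5, 0.603 for NF-YA9 and 0.86 for NF-YA10. Over 13599 genes tested in both size classes its median was 0.673, with quartiles of 0.405 and 1.77. NF-YA2 lay below the lower quartile and NF-YA10 above the median. NF-YA8 and NF-YA1 were not tested at 22 nt, so that set leaves out genes with few 22-nt reads such as these. The ratio of NF-YA8 rests on 4 reads of 22 nt in es3. All this is a description with no test, since libraries of the size classes could not be matched.

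NF-YA6, the paralog with the closest match, had 17.2, 17.6, 26.2 and 17.3 at 21 nt in es3, against 0, 0, 0 and 0.886 in es3dd. Its log2 difference of 4.11 ± 0.41 (SE; limma, adjusted p = 4.1e-09) was larger than that of any of the 7 genes, and the difference from them was not tested. Per kilobase at 21 nt in es3 NF-YA6 stood at 9.38 ± 2.12 (SD, n = 4), with libraries from 8.25 to 12.6 that overlapped those of NF-YA2. At 22 nt NF-YA6 had 7.57, 5.32, 6.78 and 3.79 in es3, against 0, 0, 0 and 0.805 in es3dd (log2 2.53 ± 0.53, SE; limma, adjusted p = 0.00011). NF-YA4 and NF-YA7, for which no site was found, were called at 21 nt with log2 differences of 1.38 ± 0.53 and 1.28 ± 0.48 (SE; limma, adjusted p = 0.0303 and 0.0271), beside 1.27 for NF-YA1 and 1.46 for NF-YA9. When centred on the median neither was called (limma, adjusted p = 0.0875 and 0.0956), and with voom weights NF-YA4 was not (limma, adjusted p = 0.082). Of all genes tested, 45.8% were called higher at 21 nt and 15.1% at 22 nt. NF-YA4, NF-YA6 and NF-YA7 had es3dd means of 0.221 to 0.229 at 21 nt and passed the filter only through es3. So did NF-YA6 at 22 nt, with 0.201 in es3dd, and these calls lend no support by themselves. NF-YA2, NF-YA3, NF-YA8 and NF-YA6 gave the 4 largest 21-nt differences among the 10 NF-YA genes.

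The partners of NF-YA in the trimer were also counted. Of 10 NF-YB genes, 3 were tested at 21 nt and all 3 were called higher in es3, beside 45.8% of all genes tested. NF-YB10, at 0.241 in es3dd, passed the filter only through es3. NF-YB3, known with NF-YB2 to promote flowering in long days, had 63.2 ± 6.1 in es3 and 5.29 ± 3.05 in es3dd (SD, n = 4 each), a log2 difference of 3.49 ± 0.31 (SE; limma, adjusted p = 3.78e-10). NF-YB2 had 18.2 ± 4.64 in es3 and 1.82 ± 1.91 in es3dd (SD, n = 4 each). At 22 nt, NF-YB3 and NF-YB2, the 2 tested, were called higher with log2 differences of 1.34 ± 0.42 and 1.18 ± 0.45 (SE; limma, adjusted p = 0.0114 and 0.047), beside 15.1% of all genes tested. Neither was called when centred on the median, and neither passed in the authors' deposited table (adjusted p = 0.125 and 0.104). Of 10 NF-YC genes, 6 were tested at 21 nt and 4 were called higher, where 45.8% of all genes tested were, and 6 genes are too few to compare with that share. When centred on the median 1 was called higher and 1 lower, and when scaled to MIR loci 6 were called higher. The 4 (NF-YC1, NF-YC3, NF-YC4 and NF-YC9) had es3dd means of 0 to 0.908 and passed the filter only through es3, and the authors' deposited table called 1 of 7 NF-YC genes with an adjusted p, NF-YC3. At 22 nt neither NF-YC6, at a log2 difference of 0.13 ± 0.28, nor NF-YC10, at -0.10 ± 0.42, was called (SE; limma, adjusted p = 0.784 and 0.896).

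Small RNAs of several MIR169 loci were lower in es3 than in es3dd. Of 14 loci, 9 were tested at 21 nt, of which 8 were called lower in es3 than in es3dd, where 7.62% of all genes tested were lower. Of those 8, 4 (MIR169i, MIR169l, MIR169m and MIR169n) had es3 means below 1 and passed the filter only through es3dd, as did MIR169e, MIR169m and MIR169n among the calls at 22 nt, so these counts lend no support by themselves. The means of all 14 loci in the authors' deposited table summed to 124 in es3, 1500 in es3dd and 158 in Col at 21 nt, and to 25.2, 244 and 44.7 at 22 nt. MIR169f alone, not recovered or tested at 21 nt, had 61.4 in es3, 738 in es3dd and 41.6 in Col of the 21-nt sums. Of the 4 loci with the mature sequence of form 4, MIR169d and MIR169g had close 21-nt values in es3dd, 286 and 283. MIR169e had 133 and MIR169f 738, so a shared mature sequence did not give close values throughout. The same reads may be counted at more than 1 locus, which was not tested. Of 10 loci tested at 22 nt, 8 were lower, where 4.26% of all genes tested were. When scaled to MIR loci or to plastid-encoded genes, 5 of 9 were called lower at 21 nt and 8 of 10 at 22 nt.

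Some reads could belong to other loci. Between 0% (NF-YA1) and 1.8% (NF-YA5) of the 21-nt windows of each gene occur elsewhere in the genome, and how the authors treated such reads is not given in the sources used here. NF-YA5 overlaps SPL2 by 154 nt on the opposite strand, where SPL2 had 3.13 in es3, 0 in es3dd and 0.328 in Col at 21 nt, and an annotated long non-coding RNA over 490 nt that was not analysed here. NF-YA9 overlaps AT3G20920 by 6 nt on the opposite strand. NF-YA6 overlaps another annotated long non-coding RNA on the opposite strand, over 585 nt, which was not analysed here. The strand used in counting is not stated, so reads from these overlaps cannot be told apart.

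The genes whose 6 group means were most like those of NF-YA2, the member with the highest 21-nt mean, were RALFL22, AT4G31140, MBF1C, AT2G03550 and TRM15, at Euclidean distances of 0.422, 0.491, 0.511, 0.527 and 0.556 on log2(mean + 1). MBF1C had means of 18.3 in es3, 0 in es3dd and 1.41 in Col at 21 nt, close to those of NF-YA2. Likeness was measured over 6 means that share their libraries, and carries no test.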

How the data were processed

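The 7 genes and all gene lists were chosen with earlier results of these data known. Small RNA libraries (4 es3, 4 es3dd) were made per the labels' protocols with the NEBNext Small RNA kit. Per the submitters' processing notes, Bowtie 1.2.2, SAMtools 1.9, DESeq2 and TAIR10 were used. Rules for counting, strand and reads with several places are not given in the sources used here. The deposited table gives the authors' TPM as group means for each size class, log2 fold changes (the 21-nt columns recorded here as a score, since some cells hold no number), and p-values with the authors' adjustment. Other per-sample columns not used numbered 0.

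Library values were recovered by matching each mean of up to 1500 reads to whole reads of 4 libraries at a relative tolerance of 5e-15. A single match was found for 25216 of 25216 genes tried in es3 and 21557 of 21557 in es3dd at 21 nt, and for 23737 of 23737 and 21832 of 21832 at 22 nt. Of as many random values, 0 matched in es3 and 1 in es3dd at 21 nt, and 0 in both at 22 nt. Genes above that reach, 173 and 83 at 21 nt and 73 and 51 at 22 nt, were not tested. Recovered genes held 34.8% of the summed signal in es3 and 14.4% in es3dd at 21 nt, and 70.3% and 63.2% at 22 nt. Letters A to D follow the recovered scale within a genotype and size class.

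Differences were fitted with limma 3.58.1 (R 4.3.3) with a mean-variance trend on log2(value + 1), over all genes with a mean of at least 1, and p-values were adjusted by Benjamini-Hochberg over all genes tested. Calls needed an adjusted p below 0.05 and a log2 difference of 1 or more in either direction. The fit and the recovery were tested on simulated data. For the fit, changes were simulated only in genes with a mean of at least 5, which 2 of the 7 genes reached at 21 nt. Finding a change at lower means was not tested. Libraries of a genotype are described as biological replicates in the design. The text names all 7 genes, and genes of the NF-YA, NF-YB, NF-YC and MIR169 lists that passed the test or that a result needed. Alternatives were the pseudocount, the filter, the scaling, voom weights, leaving out each library, the call rule and the authors' deposited comparison. Sites were searched in RefSeq transcripts of TAIR10.1 with the 4 mature miR169 forms, without gaps, at 1 for a mismatch and 0.5 for a G:U pair.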

Additional observations from a re-analysis of the deposited data

Results flagged for a closer look

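In 8 of 28 groups of 4 libraries (7 genes, both size classes, both genotypes) 1 library stood apart from the others by Dixon's test, where chance flags about 1 group in 20. All 8 were es3dd groups of a few reads. At 21 nt, NF-YA2 and NF-YA8 each had 0.915 in library C (1 read), NF-YA3 had 1.83 in library C (2 reads) and NF-YA9 had 0.966 in library A (1 read), with the other 3 libraries at 0. At 22 nt, NF-YA1 had 0.805 (1 read), NF-YA3 had 1.61 (2 reads) and NF-YA8 had 1.61 (2 reads) in library D, with the other 3 libraries at 0. For NF-YA9 at 22 nt, library D was the one at 0, while the other 3 had 1 read each. Where 3 libraries are at 0, any single read in the remaining library meets this test.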

How the results depend on the processing

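No paired analysis was possible because library values recovered from group means have no link to the labelled replicate numbers. At 21 nt, 7 members were called, 3 with a pseudocount of 5, and 2 with a mean of at least 5, which left only 2 members to test. At 22 nt, 3 were called and 1 with a pseudocount of 5, and no member passed a mean of at least 5, so that filter gives no value. Leaving out each library in turn gave 6 to 7 calls at 21 nt and 2 to 4 at 22 nt, and 32 alternatives of these counts, leaving out libraries included, stayed within 1.5 times the count reported. Of the single-gene results, 174 alternatives kept the direction and the side of the threshold, 15 kept the direction and lost the call and 3 kept it and gained one, and none reversed. The cause of the calls lost with a pseudocount of 5 is that it shrinks the log2 differences, to 0.82 for NF-YA5, 0.88 for NF-YA10, 0.51 for NF-YA9 and 0.46 for NF-YA1 at 21 nt, and to 0.80 for NF-YA2 and 0.89 for NF-YA10 at 22 nt, while their adjusted p in limma stayed below 0.05. At 22 nt NF-YA5 was called when scaled to MIR loci (1.83; limma, adjusted p = 0.0107) or plastid-encoded genes (1.79; limma, adjusted p = 0.0121). Depth limits the values, since 1 read is worth 0.693 to 0.966 and no es3dd library held more than 2 reads of any of the 7 genes.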

Other observations

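Outside the NF-YA family, 3 genes held a match to miR169 of penalty 3 or less, AT3G19540, AT2G17930 and AT5G42120. At 21 nt 1 of them was called higher and 1 lower in es3 than in es3dd, beside 45.8% higher and 7.62% lower over all genes tested. AT3G19540 had 39, 42, 41 and 30 reads of 21 nt in es3 libraries A to D, against 1, 4, 2 and 1 in es3dd, with means in the authors' deposited table of 28.7 in es3, 1.85 in es3dd and 1.03 in Col. Its log2 difference of 3.46 ± 0.36 (SE; limma, adjusted p = 1.01e-08) lay between those of NF-YA8 and NF-YA3. AT5G42120, an L-type lectin receptor kinase, had 2, 1, 3 and 0 reads in es3, against 12, 12, 10 and 8 in es3dd, so it was lower in es3, with a log2 difference of -2.43 ± 0.44 (SE; limma, adjusted p = 5.03e-05). AT2G17930 had 14, 18, 20 and 16 reads in es3 and 9, 5, 6 and 12 in es3dd, with a log2 difference of 0.77 ± 0.33 that stayed under the size required at 21 nt (SE; limma, adjusted p = 0.0482). At 22 nt AT2G17930 was called higher in es3, with 11, 5, 7 and 14 reads in es3 against 2, 3, 2 and 4 in es3dd (log2 1.35 ± 0.45, SE; limma, adjusted p = 0.0184). AT3G19540 was called higher at 22 nt too (log2 1.5 ± 0.45, SE; limma, adjusted p = 0.00846), where 15.1% of all genes tested were. AT5G42120, with 1 read in all, was not tested at 22 nt. These 3 genes were looked at after the site search and have no other support here.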
